A study of Mus musculus with 29 samples.

Results

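The tRNAs for valine, isoleucine and threonine carry the amino acids whose side chain branches at its beta carbon. Among the 646 Pol III loci with an RPC4 occupancy score in mouse liver, 58 were annotated as genes of these tRNAs, and all 58 are described here. They were chosen by the amino acid in their annotation and not by any measured value. The 23 tRNA-Val genes comprised 8 with the anticodon AAC, 11 with CAC, 1 with GAC and 3 with TAC. The 17 tRNA-Ile genes comprised 11 with AAT, 1 with GAT and 5 with TAT, of which 4 were annotated with an intron. The 18 tRNA-Thr genes comprised 9 with AGT, 5 with CGT and 4 with TGT. The other 375 tRNA genes of the table served for comparison.

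RPC4 is a subunit of RNA polymerase III (Pol III), and its occupancy was profiled by ChIP-seq in liver of male C57/BL6 mice of 12 to 14 weeks kept in a 12 h light and 12 h dark cycle with food during the night. Partial hepatectomy (PH), the surgical removal of most of the liver, was done at the start of the day. Liver was taken either before PH (TP0) or after 36, 48 or 60 h (TP36, TP48 and TP60). By these hours TP36 and TP60 fall in the dark part of the cycle and TP48 in the light part. When TP36 or TP60 is compared with TP0, time since PH and time of day cannot be told apart. There were 2 replicates for each time, each a pool of livers from 3 mice, which makes 8 RPC4 libraries among the 29 samples of the series. The labels name no genetic change in the animals. The table holds Pol III loci only, so that liver markers could not be checked in it. Liver contains several cell types, and in such tissue more polymerase at a gene in each cell and more cells with polymerase at it cannot be told apart. No sample title names animals operated on without liver removal, and no such library is compared here. Effects of the operation itself and of liver removal cannot be told apart. P-values measure the spread between these pools.

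A tRNA gene carries its promoter inside the transcribed sequence, as an A box and a B box. TFIIIC binds these boxes and recruits TFIIIB upstream of the start site, TFIIIB places the polymerase, and transcription ends in a run of T residues after the gene. Vertebrate genomes hold many tRNA genes with the same anticodon, often in clusters, and several of them can have the same mature sequence. Occupancy by a Pol III subunit tells which of these copies the polymerase sits on, which cannot be read from the tRNA itself when the copies are identical.

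Each score gives ChIP fragments over input fragments at a gene on the log2 scale, so that 1 unit is a doubling. A gene was called occupied when its score passed the cutoff that the deposited table gives for a library, from 0.81 to 1.55 in the 8 libraries, in at least 1 library. By this rule 47 of the 58 genes were occupied and 11 were below the cutoff in all libraries. In the 11 genes the scores stayed between -0.84 and 0.66. Before PH, 36 of the 47 occupied genes were above the cutoff, 35 of them in both TP0 libraries, and the other 11 passed it only after PH.

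The gene sequences, read from the NCBI37 genome at the coordinates of the table, are printed 5′ to 3′ with the anticodon in capitals. Positions of substitutions are counted from 1 at the 5′ end, with the base of the common sequence first. The isoleucine TAT genes are shown because they fall into 3 kinds of occupancy: n-Ti16 (chr7:29158018-29158112, plus strand) and n-Ti17 (chr17:84261284-84261376, plus strand) were occupied before PH, n-Ti14 (chr13:21988807-21988900, minus strand) and n-Ti15 (chr13:23362290-23362385, minus strand) only after it, and n-Ti13 (chr1:155305794-155305866, plus strand) at no time. The first 4 carry an intron, which the tRNA splicing endonuclease removes, close behind the anticodon and are 93 to 96 bases long, while n-Ti13 has no intron and is 73 bases long.
n-Ti16: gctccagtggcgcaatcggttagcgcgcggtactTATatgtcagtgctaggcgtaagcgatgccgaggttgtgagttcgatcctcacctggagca
n-Ti17: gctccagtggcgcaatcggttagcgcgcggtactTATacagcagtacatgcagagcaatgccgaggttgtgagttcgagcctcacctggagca
n-Ti14: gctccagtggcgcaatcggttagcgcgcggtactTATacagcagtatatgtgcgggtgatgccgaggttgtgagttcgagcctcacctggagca
n-Ti15: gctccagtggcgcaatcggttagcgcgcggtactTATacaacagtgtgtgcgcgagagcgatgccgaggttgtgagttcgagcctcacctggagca
n-Ti13: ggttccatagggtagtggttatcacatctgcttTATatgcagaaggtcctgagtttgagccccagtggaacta
Of all tRNA genes that were occupied, the closest in sequence to n-Ti13 were the 3 identical valine TAC genes, here n-Tv23 (chrX:157204042-157204114, plus strand), with 8 substitutions and 89.0% identity.
n-Tv23: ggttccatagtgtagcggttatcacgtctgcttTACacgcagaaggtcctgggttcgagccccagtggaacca

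The valine genes shown are the ones on which the comparisons turn. n-Tv18 (chr3:96136663-96136735, plus strand) has the sequence that 5 valine CAC genes share. n-Tv19 (chr13:23399498-23399570, plus strand) differs from it by T27C and A43G, and n-Tv13 (chr6:10050371-10050443, plus strand), below the cutoff in every library, by C6T and G67A. Of the valine AAC genes, n-Tv4 (chr13:23377270-23377342, plus strand) is identical to n-Tv5, and n-Tv8 (chr3:30500192-30500264, plus strand) differs from that pair by C20T, C27T and G43A.
n-Tv18: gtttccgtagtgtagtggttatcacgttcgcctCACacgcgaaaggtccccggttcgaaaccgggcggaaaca
n-Tv19: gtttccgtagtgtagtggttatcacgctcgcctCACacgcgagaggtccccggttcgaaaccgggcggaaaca
n-Tv13: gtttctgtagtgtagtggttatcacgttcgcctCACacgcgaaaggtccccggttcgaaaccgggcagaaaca
n-Tv4: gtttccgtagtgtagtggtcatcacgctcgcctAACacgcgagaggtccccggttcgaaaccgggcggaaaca
n-Tv8: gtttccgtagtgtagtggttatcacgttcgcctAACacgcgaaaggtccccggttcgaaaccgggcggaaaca
Among the threonine genes, n-Tt9 (chr7:36019789-36019862, minus strand) is an AGT sequence found in 3 copies, and n-Tt2 (chr14:59436990-59437063, minus strand), below the cutoff throughout, differs from it by G4A and C62T. n-Tt17 (chr14:51684843-51684915, minus strand) had the highest mean TP0 score of the threonine genes, and n-Tt18 (chr13:21367825-21367898, plus strand) has the same anticodon and a mean TP0 score of 0.81.
n-Tt9: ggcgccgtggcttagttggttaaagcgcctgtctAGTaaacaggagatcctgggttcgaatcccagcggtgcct
n-Tt2: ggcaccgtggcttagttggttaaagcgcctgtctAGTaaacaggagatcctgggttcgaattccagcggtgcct
n-Tt17: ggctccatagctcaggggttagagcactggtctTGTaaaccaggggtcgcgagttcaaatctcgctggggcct
n-Tt18: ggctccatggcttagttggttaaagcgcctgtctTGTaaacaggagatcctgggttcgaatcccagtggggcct

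A match to the A box was found in 47 of 47 occupied genes and in 10 of the 11 unoccupied ones, beside 408 of all 433 tRNA genes (94.2%). The B box, searched as GTTCGANNC on the strand of the gene, matched in 41 of 47 occupied genes (87.2%), in 4 of 11 unoccupied ones (36.4%) and in 58.4% of all tRNA genes. A run of TTTT in the 50 bases after the gene was present in 45 of 47 occupied genes (95.7%), in 2 of 11 unoccupied ones (18.2%) and in 86.6% of all tRNA genes. Among the other tRNA genes the run followed 94.8% of the 251 occupied and 72.6% of the 124 unoccupied genes. The B box string matched in 68.1% of those occupied and 29.8% of those unoccupied. Occupied genes without a match to the B box were n-Tt3, n-Tt4, n-Tt15, n-Tt16, n-Tt17 and n-Tv10, and those without a TTTT run were n-Tt5 and n-Tv10. These matches are descriptions of sequence, and binding by TFIIIC was not measured.

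The 30 bases after the gene are shown for the occupied gene n-Tv18 and for n-Tv13, an unoccupied gene close to it in sequence, with the first TTTT in capitals. The run is present after n-Tv18 and absent after n-Tv13.
n-Tv18 downstream: agcagtcTTTTcttatccagtggagggaag
n-Tv13 downstream: agtagtctgggctggtgagatggctcagtg
The 11 unoccupied genes were n-Ti1, n-Ti2, n-Ti12, n-Ti13, n-Tv1, n-Tv9, n-Tv11, n-Tv13, n-Tv20, n-Tt2 and n-Tt10. They included the only isoleucine GAT gene (n-Ti12) and the only valine GAC gene (n-Tv20). Their closest occupied tRNA gene shared from 67.1% (n-Tt10) to 97.3% (n-Tv13 and n-Tt2) of positions, and for n-Ti13, n-Tv1, n-Tv20 and n-Tt10 it was a gene of another amino acid. All 4 members that lay in an intron of a protein-coding gene were among the 11. They were n-Ti13 in Dhx9, n-Ti12 in Casc5, n-Tv1 in Ubr4 and n-Tt10 in Ccdc112. Location in an intron was not examined for the other tRNA genes.

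**Figure D1:**
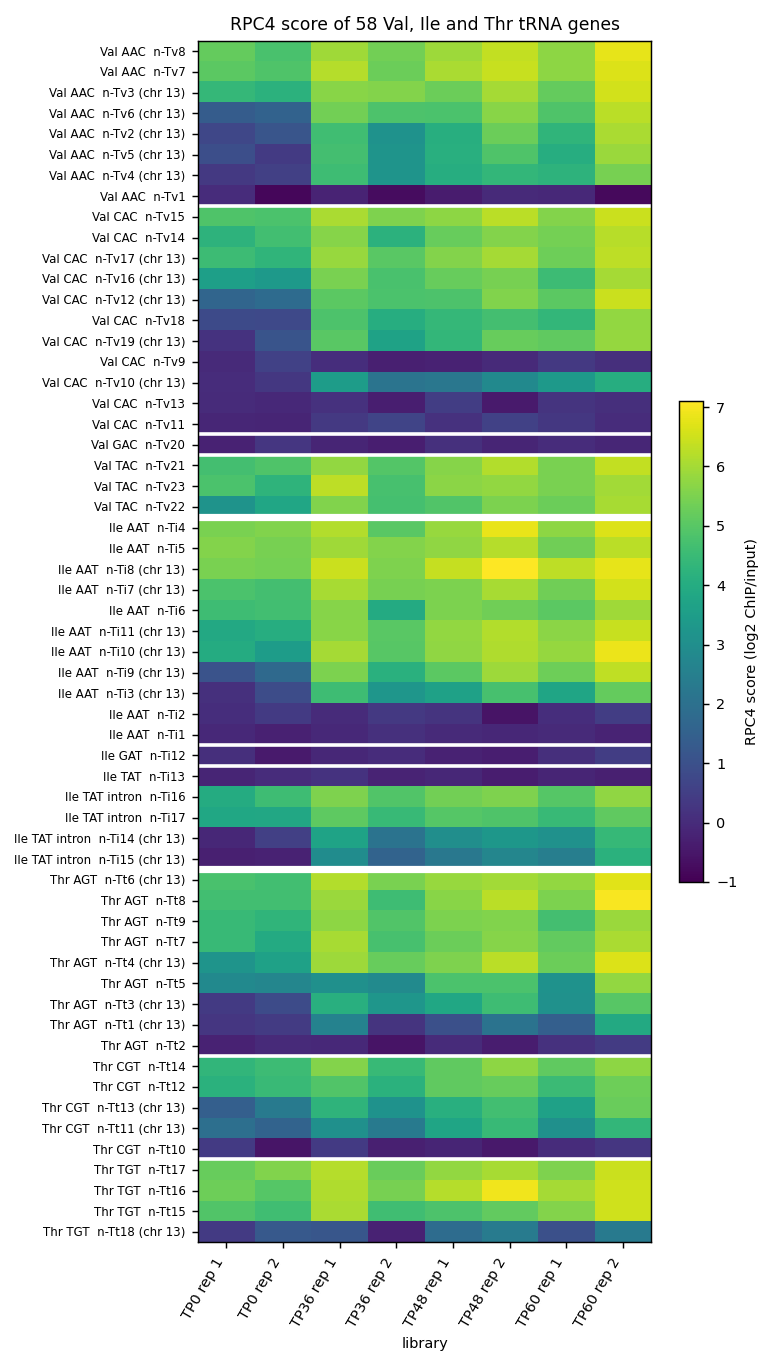
RPC4 scores (log2 ChIP over input, colour) of the 58 genes (rows, by amino acid and anticodon, then by falling mean TP0 score, with white lines between anticodons) in the 8 libraries (columns, by time point and replicate). The 11 genes below the cutoff in every library lie between -0.84 and 0.66 throughout, and the 11 genes under the cutoff only at TP0 have medians of 0.28 and 0.80 at TP0 and of 3.13 to 4.98 in the later libraries.

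Before PH the scores of the 47 occupied genes covered a wide range, from -0.29 to 5.59 in replicate 1 and from -0.21 to 5.56 in replicate 2. The highest mean was that of a gene of the 8 identical isoleucine copies: n-Ti4 (chr11:68875822-68875895, minus strand), with n-Ti5 nearly level, had scores of 5.48 and 5.56 at TP0, 6.16 and 5.03 at TP36, 5.85 and 6.82 at TP48 and 5.74 and 6.68 at TP60. Its values at TP36 lay on either side of those at TP0, and those at TP48 and TP60 were all above them. For threonine the highest gene was n-Tt17, with 5.23 and 5.56 at TP0, 6.19 and 5.26 at TP36, 5.79 and 6.03 at TP48 and 5.54 and 6.44 at TP60, where the TP0 range overlapped that at TP36 and at TP60. For valine it was n-Tv8, with 5.18 and 4.77 at TP0, 5.96 and 5.39 at TP36, 5.93 and 6.36 at TP48 and 5.73 and 6.80 at TP60, and here all later scores were above both TP0 scores. At the other end stood n-Tv10 for valine, n-Ti15 for isoleucine and n-Tt1 for threonine, all under the cutoff at TP0. The scores of n-Tv10 were 0.02 and 0.32 at TP0, 3.47 and 2.11 at TP36, 2.22 and 2.85 at TP48 and 3.36 and 4.05 at TP60, every later library being above its TP0 values. Those of n-Tt1 were 0.28 and 0.40 at TP0, 2.59 and 0.22 at TP36, 0.97 and 2.08 at TP48 and 1.47 and 3.93 at TP60, with a TP36 replicate below both TP0 values.

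The 11 genes that were under the cutoff only at TP0 (n-Ti3, n-Ti14, n-Ti15, n-Tt1, n-Tt3, n-Tt18, n-Tv2, n-Tv4, n-Tv10, n-Tv18 and n-Tv19) had median scores of 0.28 and 0.80 at TP0, 4.10 and 3.13 at TP36, 3.62 and 4.36 at TP48 and 3.36 and 4.98 at TP60. The 36 genes above the cutoff at TP0 went from medians of 4.42 and 4.40 to 5.76 and 4.86, 5.49 and 5.85, and 5.32 and 6.32. The 11 genes counted as occupied only through their later scores, so that a rise is part of how they were chosen and the medians are a description. The 11 genes below the cutoff in every library were also low at TP0 and stayed between -0.84 and 0.66.

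**Figure D2:**
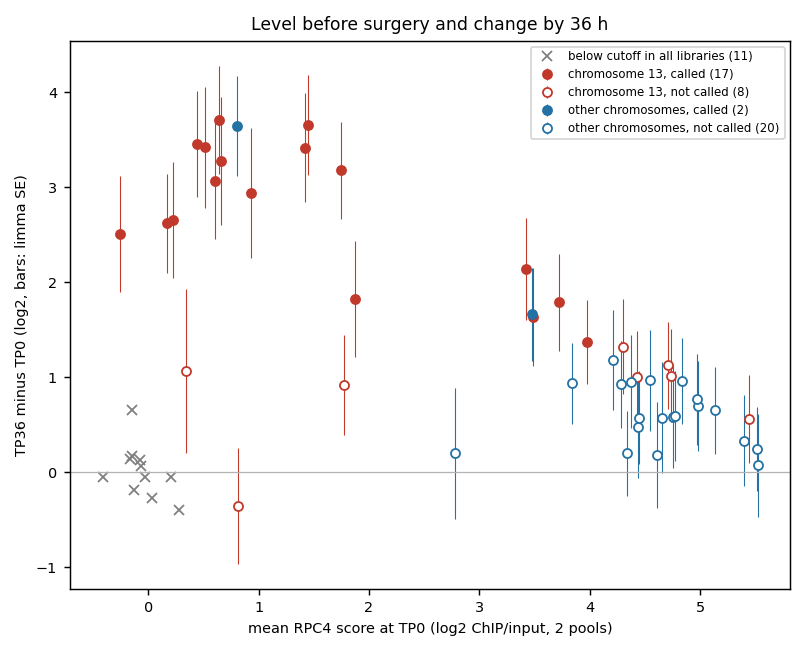
Change in mean RPC4 score from TP0 to TP36 (vertical axis, log2) against the mean TP0 score (horizontal axis, log2) for the 58 genes, with limma SE as bars, chromosome 13 in red, other chromosomes in blue, called genes filled and the 11 genes below the cutoff in every library as crosses. The TP0 score enters both axes, and of all 28 genes with a mean TP0 score under 2, 14 were called and 11 were below the cutoff in every library, while 5 of the 30 genes at 2 or above were called.

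Comparing TP36 with TP0 asks which of these genes had gained Pol III by 36 h after PH. A gene was called when its Storey q value in a limma fit over all 646 loci was under 0.05 and it was occupied at either time. By TP36, 19 of the 47 occupied genes rose and none fell. This is 40.4% of the occupied genes, beside a background of 29.0% over all 487 occupied loci, and 32.8% of the 58 genes beside 21.8% over all 646 loci. The change was positive in 46 of the 47 genes, with a median of 1.02 on the log2 scale, beside 0.96 over all occupied loci and 0.94 over the occupied other tRNA genes. The exception was n-Tt18, at -0.35 ± 0.61 (SE). Both TP36 scores were above both TP0 scores in 36 of the 47 genes (background 68.2% of the occupied loci).

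Of the valine genes 10 of 18 occupied ones rose, with a median change of 1.65, and when each library was centred on its median over all 646 loci 8 rose and 7 fell. Of the isoleucine genes 6 of 13 rose, with a median of 1.02, and 4 rose and 7 fell after centring. Of the threonine genes 3 of 16 rose, with a median of 0.79, and 1 rose and 13 fell after centring. Differences between the amino acids were not tested. The library median over all loci shifted upwards from TP0 by 1.72 at TP36, 1.72 at TP48 and 1.93 at TP60, whereas over the 154 loci below the cutoff in all 8 libraries it shifted by 0.02, 0.03 and 0.08. A centred value is the change less this shift. The shift is larger than the median change of the 646 loci, which was 0.68, 0.88 and 0.95, so that a gene can count as fallen after centring although it moved up by more than the median locus. Over all 47 occupied genes 13 rose and 27 fell by TP36 on that scale, and the 13 were all among the 19. No share over all loci is given for counts after centring or with a library left out.

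The genes with the strongest rise at TP36 were mostly valine genes on chromosome 13. n-Tv6 (chr13:23390650-23390722, plus strand), an AAC gene, had scores of 1.35 and 1.54 at TP0, 5.37 and 4.83 at TP36, 4.82 and 5.66 at TP48 and 4.88 and 6.26 at TP60. All 6 later scores were above both TP0 scores. Its change at TP36 was 3.65 ± 0.53 (SE, limma q = 0.00124), a 12.6-fold higher ratio. n-Tv19, the CAC gene that differs by T27C and A43G from the common sequence, had 0.18 and 1.10 at TP0, 5.03 and 3.67 at TP36, 4.37 and 5.23 at TP48 and 5.11 and 5.81 at TP60, again with no overlap. It changed by 3.71 ± 0.57 (limma q = 0.00127), and by 4.82 ± 0.57 (limma q = 0.000187) at TP60, where its ratio was 28.3-fold that at TP0. n-Tv12 (chr13:23391991-23392063, plus strand), a CAC gene, had 1.66 and 1.83 at TP0, 5.05 and 4.80 at TP36, 4.85 and 5.57 at TP48 and 5.06 and 6.44 at TP60, all later values being above TP0, and changed by 3.18 ± 0.51 (limma q = 0.00127).

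Both genes of the identical valine AAC pair rose. n-Tv4 had 0.35 and 0.54 at TP0, 4.60 and 3.20 at TP36, 4.05 and 4.36 at TP48 and 4.22 and 5.43 at TP60. n-Tv5 (chr13:23505117-23505189, minus strand) had 0.95 and 0.38 at TP0, 4.69 and 3.19 at TP36, 4.10 and 4.86 at TP48 and 4.05 and 5.89 at TP60. In each gene every score after PH was above the TP0 scores by more than 2 units. The changes at TP36 were 3.46 ± 0.56 (limma q = 0.00127) and 3.27 ± 0.67 (limma q = 0.00408). The counting windows of n-Tv4, n-Tv5 and n-Tv6 overlap that of a neighbouring locus, so that some fragments count for both. The same holds for n-Tv2, n-Tv7, n-Tv21, n-Tv22, n-Tt7, n-Tt8 and n-Tt17. n-Tv10, another CAC gene of the same region, which lacks both the exact B box string and the TTTT run, changed by 2.62 ± 0.52 (limma q = 0.00371).

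Outside chromosome 13, 2 of the 22 occupied genes rose by TP36, and both encode tRNA-Val. n-Tv18 on chromosome 3 had 0.81 and 0.80 at TP0, 4.85 and 4.04 at TP36, 4.41 and 4.69 at TP48 and 4.35 and 5.80 at TP60. Its TP0 scores were both under the cutoff of their library and all later ones above it. The change was 3.64 ± 0.52 (limma q = 0.00124), a 12.5-fold higher ratio, and 1.92 beyond the shift of the library median. The other was the TAC gene n-Tv22 (chr19:12086756-12086828, plus strand), with 3.17 and 3.78 at TP0, 5.58 and 4.70 at TP36, 4.89 and 5.50 at TP48 and 5.30 and 6.04 at TP60. It changed by 1.66 ± 0.49 (limma q = 0.0229) with no overlap of the groups, and by -0.061 relative to the library median.

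Among isoleucine genes, n-Ti9 (chr13:23400921-23400994, minus strand), an AAT copy identical to n-Ti4, had 1.08 and 1.76 at TP0, 5.51 and 4.15 at TP36, 5.05 and 5.90 at TP48 and 5.32 and 6.33 at TP60. n-Ti3 (chr13:23488929-23489002, plus strand), also with the anticodon AAT, had 0.14 and 0.88 at TP0, 4.60 and 3.27 at TP36, 3.62 and 4.74 at TP48 and 3.76 and 5.20 at TP60. In both genes all 6 later scores were above the TP0 scores, and both changed by 3.42 at TP36 (± 0.58 and ± 0.64, limma q = 0.00148 and 0.00249). Among threonine genes, n-Tt3 (chr13:21341063-21341136, minus strand), with the anticodon AGT, had 0.37 and 0.84 at TP0, 4.10 and 3.25 at TP36, 3.82 and 4.58 at TP48 and 3.10 and 4.98 at TP60, without overlap, and changed by 3.07 ± 0.62 (limma q = 0.00381). The CGT gene n-Tt13 (chr13:21414682-21414755, plus strand) stood closest to the threshold among the called genes, at 1.83 ± 0.61 (limma q = 0.0344), with scores of 1.46 and 2.29 at TP0, 4.27 and 3.14 at TP36, 4.10 and 4.65 at TP48 and 3.64 and 5.25 at TP60. The AAC gene n-Tv3 (chr13:22107660-22107732, minus strand) was the nearest among those not called, at 1.32 ± 0.50 (limma q = 0.0533), with 4.39 and 4.21 at TP0, 5.66 and 5.59 at TP36, 5.27 and 6.02 at TP48 and 5.20 and 6.53 at TP60. Its groups did not overlap, and with centring its change was -0.40.

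The count at TP36 depended on single libraries. Without TP0 replicate 1 it was 10, without TP0 replicate 2 it was 9 and without TP36 replicate 1 it was 10, all of these being among the 19, whereas without TP36 replicate 2 it was 40. The 2 TP36 libraries stood apart by 0.91 in the median of the 47 genes, replicate 1 being the higher. The corresponding differences of replicate 1 from replicate 2 were -0.08 at TP0, -0.51 at TP48 and -1.01 at TP60.

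By TP48, 36 of the 47 occupied genes rose (76.6%, background 51.5% of 480 occupied loci), or 62.1% of all 58 genes beside 38.2% of all loci, and none fell. The TP48 scores lay above the TP0 scores without overlap in 46 genes (background 92.1%). The median change was 1.34, beside 1.12 over all occupied loci and 1.29 over the other tRNA genes. By amino acid 17 of 18 valine, 9 of 13 isoleucine and 10 of 16 threonine genes rose, and after centring on the library median 16 of the 47 rose and 14 fell. By TP60, 39 of 47 rose (83.0%, background 57.3% of 487 loci), or 67.2% of the 58 beside 43.2% of all loci, and none fell. The groups did not overlap in 44 genes (background 83.4%), and the median change was 1.57, beside 1.22 over all occupied loci and 1.32 over the other tRNA genes. All 18 occupied valine genes, 10 of 13 isoleucine and 11 of 16 threonine genes rose by TP60, and after centring 16 rose and 22 fell. With the Benjamini-Hochberg adjustment in place of Storey q, limma gave 21 calls at TP48 and 22 at TP60. The background under that adjustment was 133 of 480 and 176 of 487 occupied loci. Leaving out libraries moved the counts of members too. At TP48 the count fell to 17 and 14 calls when TP0 replicate 1 or 2 was left out, and to 23 and 11 for TP48 replicate 1 or 2. At TP60 it was 20 and 18 for the TP0 libraries in the same order, 25 for either TP48 library and 18 for TP60 replicate 2.

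The 3 comparisons share the TP0 libraries. The 19 genes called at TP36 were also called at TP48 and TP60, 16 further genes were called at TP48 and TP60, n-Tt9 was called at TP48 alone, and n-Tv14, n-Ti7, n-Tt1 and n-Tt15 at TP60 alone. The 7 occupied genes called at no time were n-Ti4, n-Ti5, n-Ti6, n-Tt12, n-Tt14, n-Tt17 and n-Tt18. The first 6 of these had mean TP0 scores from 4.33 to 5.52. No valine gene was among the 7. Of the 11 genes that passed the cutoff only after PH, 9 were called at all 3 times, n-Tt1 at TP60 and n-Tt18 at none. A rise from TP0 is part of how these 11 were chosen, so that these calls are no separate evidence of it.

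Between the later time points none of the 58 genes passed the test. For TP48 against TP36, TP60 against TP36 and TP60 against TP48 the number of calls with limma was 0 by Storey q and by the Benjamini-Hochberg adjustment, with a background of 0 over all loci. At an unadjusted p under 0.05 there were 3, 0 and 1 members, beside 1.02%, 1.43% and 3.08% of the occupied loci. The 3 at TP48 against TP36 were all threonine genes on chromosomes 11 and 13. n-Tt5 (chr11:68923967-68924040, plus strand), an AGT gene that differs by T16C from n-Tt9, had 2.84 and 2.71 at TP0, 3.07 and 2.89 at TP36, 4.80 and 4.82 at TP48 and 3.12 and 5.78 at TP60. Its TP36 scores were near those of TP0, its TP48 scores higher and its TP60 replicates far apart. The difference of TP48 from TP36 was 1.83 ± 0.69 (SE, limma q = 0.848). The CGT gene n-Tt11 (chr13:21356449-21356522, plus strand) differed by 1.42 ± 0.53 and the TGT gene n-Tt18 by 1.65 ± 0.61, each with limma q = 0.848. For n-Tt18 the scores were 0.36 and 1.26 at TP0, 1.16 and -0.24 at TP36, 1.85 and 2.38 at TP48 and 0.97 and 2.34 at TP60, with 1 TP36 replicate above its cutoff and the other below. With each library centred on its median over all loci n-Tt5 and n-Tt18 passed the test, at 1.84 ± 0.43 (limma q = 0.0146) and 1.66 ± 0.42 (limma q = 0.0296). Without TP60 replicate 1, n-Tt5 also passed it for TP60 against TP36, at 2.80 ± 0.52 (limma q = 0.0210). At TP60 against TP48 the gene was n-Tv10, at 1.17 ± 0.52 (limma q = 1).

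Identical genes could differ widely in occupancy before PH. The 58 genes had 40 distinct sequences, and 25 genes belonged to 7 families of identical copies. The scores of the 8 identical isoleucine AAT genes ran from 1.08 to 5.59 and from 1.76 to 5.56 in the TP0 libraries, a span of 4.51 and 3.80 units, with n-Ti9 the lowest in both. At TP36 they spanned 0.94 and 1.65 units, at TP48 1.34 and 1.72, and at TP60 1.24 and 0.92. The 5 identical valine CAC genes spanned 4.06 and 4.01 units at TP0, with n-Tv18 the lowest in both, then 1.21 and 1.50 at TP36, 1.31 and 1.58 at TP48 and 1.24 and 0.66 at TP60. In both families every library after PH had a narrower span than the TP0 libraries. The wide TP0 spans rest largely on these lowest copies. The next lowest scores at TP0 were 3.90 and 3.46 in the isoleucine family and 3.58 and 3.40 in the valine family. The copies can be told apart only through the bases around them. Fragments with several matches on the genome made up at most 14.2% of a score in any member (n-Tv13) and none at 34 of the 58. For the low copies n-Ti9 and n-Tv18 the largest part was 11.3% and 6.0%. In the other copies of these families it was at most 1.3%.

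**Figure D3:**
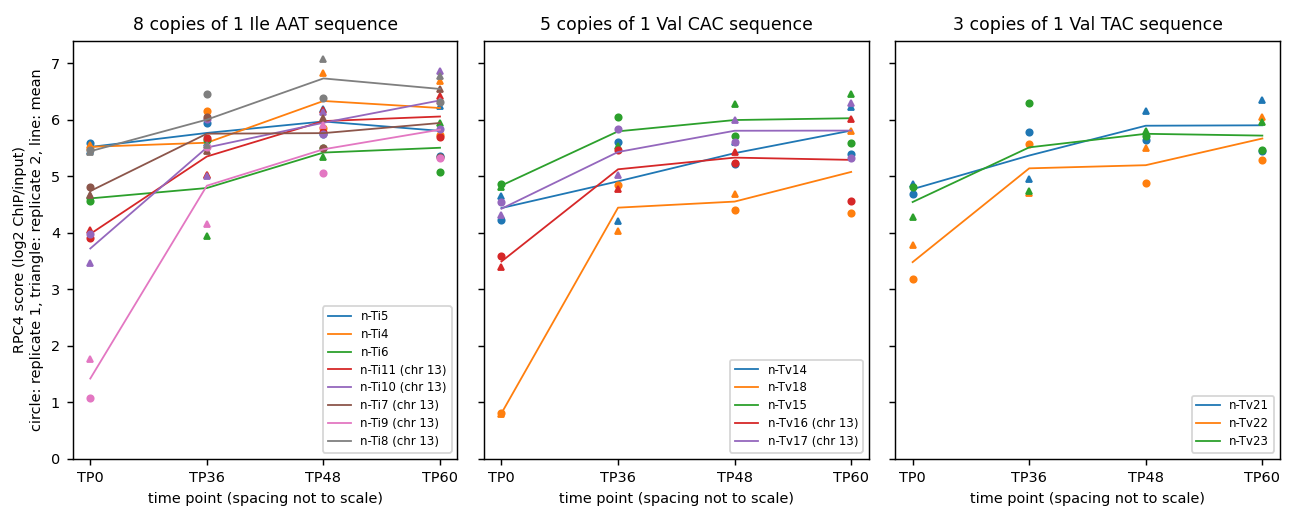
RPC4 scores (vertical axis, log2) of the 8 identical isoleucine AAT, 5 identical valine CAC and 3 identical valine TAC genes by time point (horizontal axis, not to scale), with a circle for replicate 1, a triangle for replicate 2 and a line through their mean. n-Ti9 and n-Tv18 are the lowest copies in both TP0 libraries, at 1.08 and 1.76 and at 0.81 and 0.80, and lie nearer to the other copies after PH.

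The smaller families were less spread. The 3 identical threonine AGT genes n-Tt7, n-Tt8 and n-Tt9 lay within 0.20 and 0.70 of each other at TP0. Later they spanned 0.31 and 0.32 at TP36, 0.39 and 0.71 at TP48 and 0.82 and 1.15 at TP60. The threonine TGT pair n-Tt16 and n-Tt17 lay within 0.08 and 0.61 at TP0. Its later spans were 0.07 and 0.18 at TP36, 0.40 and 0.90 at TP48 and 0.47 and 0.07 at TP60. Neither threonine family was narrower than at TP0 in every later library, and the same held for the valine AAC pairs. The 2 valine AAC pairs stood at opposite ends: n-Tv7 and n-Tv8 lay between 4.77 and 5.18 at TP0, while n-Tv4 and n-Tv5 lay between 0.35 and 0.95. The 3 identical valine TAC genes, n-Tv21 (chr19:12086421-12086493, plus strand), n-Tv22 and n-Tv23, spanned 1.63 and 1.07 units at TP0 and 0.18 and 0.38 at TP60.

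n-Tv21 had 4.69 and 4.86 at TP0, 5.79 and 4.94 at TP36, 5.64 and 6.15 at TP48 and 5.46 and 6.35 at TP60. n-Tv23 on chromosome X had 4.80 and 4.28 at TP0, 6.29 and 4.73 at TP36, 5.71 and 5.80 at TP48 and 5.47 and 5.97 at TP60. Scores of n-Tv21 at all later times were above TP0, and those of n-Tv23 overlapped TP0 at TP36 only. At TP48 they rose by 1.12 ± 0.48 (limma q = 0.0428) and 1.21 ± 0.53 (limma q = 0.0463), whereas with each library centred on its median over all loci these changes were -0.59 and -0.51.

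The intron-bearing isoleucine TAT genes split by their position. n-Ti16 on chromosome 7 had 3.99 and 4.58 at TP0, 5.53 and 4.89 at TP36, 5.37 and 5.54 at TP48 and 4.95 and 5.74 at TP60. n-Ti17 on chromosome 17 had 3.81 and 3.87 at TP0, 5.09 and 4.47 at TP36, 4.98 and 4.86 at TP48 and 4.46 and 5.13 at TP60. The other genes with an intron lie on chromosome 13. n-Ti14 had -0.09 and 0.55 at TP0, 3.69 and 2.08 at TP36, 2.99 and 3.28 at TP48 and 3.11 and 4.43 at TP60. n-Ti15 had -0.29 and -0.21 at TP0, 2.93 and 1.58 at TP36, 2.24 and 2.71 at TP48 and 2.47 and 4.16 at TP60. In all 4 genes every later score was above the TP0 scores, but at TP0 the chromosome 13 genes were at the level of unoccupied genes. By TP36 n-Ti14 rose by 2.65 ± 0.61 (limma q = 0.00769) and n-Ti15 by 2.51 ± 0.61 (limma q = 0.00977), a 6.29-fold and a 5.69-fold higher ratio.

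The changes of n-Ti16 and n-Ti17 at TP36 were 0.93 ± 0.46 (limma q = 0.0974) and 0.94 ± 0.43 (limma q = 0.0842), and at TP48 both rose, by 1.17 ± 0.46 (limma q = 0.0360) and 1.08 ± 0.43 (limma q = 0.0369), whereas centred on the library median they changed by -0.54 and -0.64. At TP60 n-Ti14 and n-Ti15 reached changes of 3.54 and 3.57 (± 0.61 each, limma q = 0.000824 each), 11.7-fold and 11.9-fold. The TAT gene without an intron, n-Ti13, had -0.18 and 0.04 at TP0, 0.18 and -0.18 at TP36, -0.10 and -0.34 at TP48 and -0.16 and -0.29 at TP60, no library being above its cutoff. The GAT gene n-Ti12 (chr2:118881889-118881962, minus strand) had 0.09 and -0.43 at TP0, -0.10 and 0.04 at TP36, -0.22 and -0.31 at TP48 and 0.08 and 0.47 at TP60. The valine GAC gene n-Tv20 (chr6:135217793-135217866, minus strand) had -0.22 and 0.28 at TP0, -0.15 and -0.32 at TP36, 0.11 and -0.16 at TP48 and 0.03 and -0.12 at TP60. These 3 genes stayed near 0 throughout and, below the cutoff, could not be called.

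**Figure D4:**
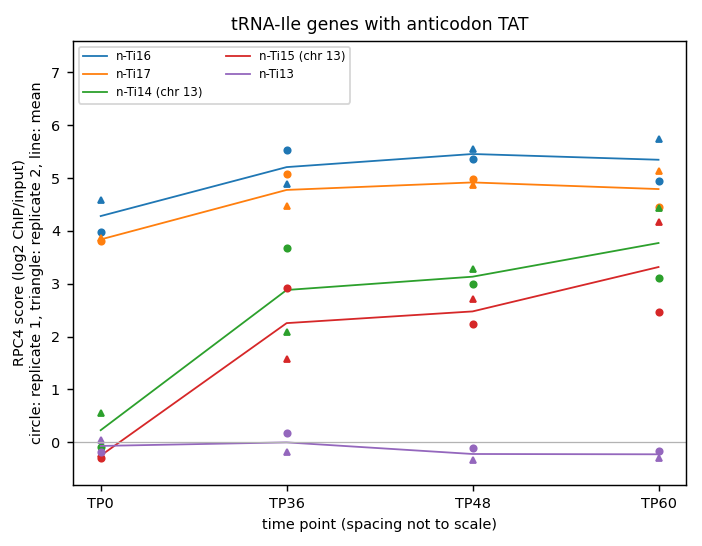
RPC4 scores (vertical axis, log2) of the 5 isoleucine TAT genes at each time point (horizontal axis), with a point for each replicate and a line through the mean of 2. n-Ti16 and n-Ti17 start between 3.81 and 4.58, n-Ti14 and n-Ti15 between -0.29 and 0.55 before they rise, and n-Ti13 stays between -0.34 and 0.18.

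Chromosome 13 held 25 of the 58 genes, all of them occupied, in 2 stretches. The first held 12 genes in 781 kb (chr13:21341063-22122042) and the second 13 genes in 180 kb (chr13:23362290-23542564). By TP36, 17 of the 25 genes rose, with a median change of 2.14, and 2 of the 22 occupied genes elsewhere, with a median of 0.62. After centring on the library median 12 rose and 7 fell on chromosome 13, and 1 rose and 20 fell elsewhere. The other tRNA genes had 42 of 79 occupied genes called on chromosome 13 (median 1.66) and 42 of 170 elsewhere (median 0.76). The counts on chromosome 13 and elsewhere were 9 and 1, 8 and 1, and 9 and 1 without TP0 replicate 1, TP0 replicate 2 and TP36 replicate 1, and 24 and 16 without TP36 replicate 2. The difference between chromosomes was not tested.

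In the first stretch 7 of 12 genes were called at TP36 and in the second 10 of 13. The second stretch ended in 3 genes, n-Ti8, n-Tv17 and n-Tt6, with mean TP0 scores of 5.44, 4.42 and 4.70, and these were the ones not called there. Their changes at TP36 were 0.56, 1.00 and 1.12. In the 10 other genes of that stretch the mean TP0 score ranged from -0.25 to 1.75. By TP48, 22 of 25 genes on chromosome 13 and 14 of 22 elsewhere rose, and by TP60, 24 and 15. The other tRNA genes had 64 of 77 and 85 of 170 at TP48 and 70 of 79 and 90 of 170 at TP60. The counts elsewhere depended on the setting: with the Benjamini-Hochberg adjustment they were 3 at TP48 and 2 at TP60, without either TP0 library 1 and 2, and after centring on the library median 1 rose at each time while 13 and 18 fell. On chromosome 13 the counts were 18 and 20 with that adjustment, 16 and 18 without TP0 replicate 1, 13 and 16 without TP0 replicate 2, and after centring 15 rose at each time while 1 and 4 fell. With the replicate number as a block the counts were 22 and 21 on chromosome 13 and 8 at each time elsewhere. The gene of chromosome 13 called at no time was n-Tt18.

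**Figure D5:**
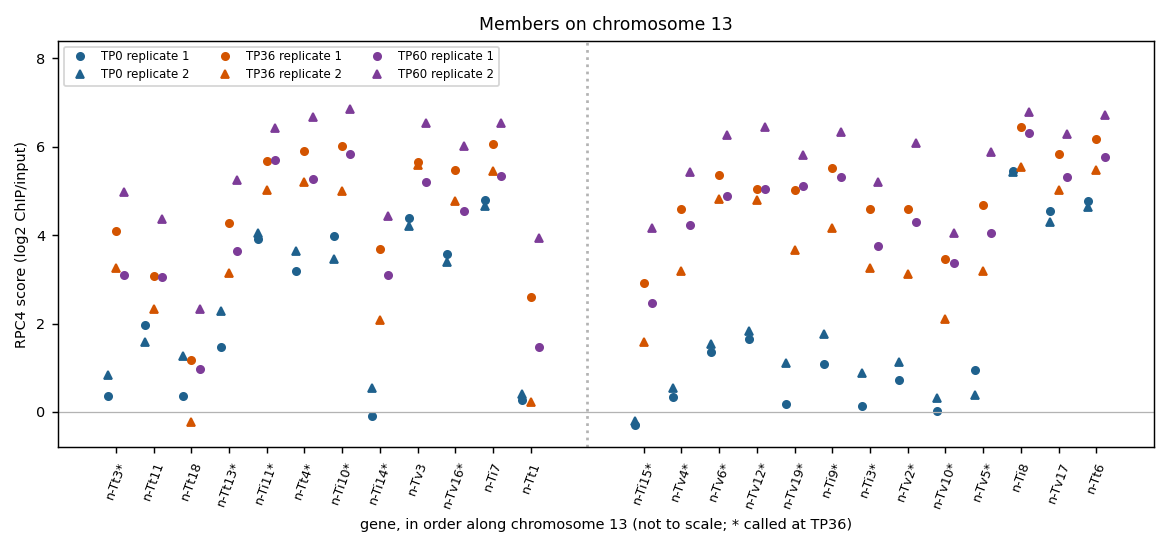
RPC4 scores (vertical axis, log2) of each replicate at TP0, TP36 and TP60 for the 25 genes on chromosome 13, in chromosomal order (horizontal axis, not to scale), with a dotted line between the 2 stretches and an asterisk at genes called at TP36. The last 3 genes of the second stretch have TP0 means of 5.44, 4.42 and 4.70, and the 10 before them have means between -0.25 and 1.75.

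Position also described the unoccupied genes. All 25 genes that lay within 1.5 kb of another Pol III locus were occupied, against 15 of 20 that lay farther from Pol III loci but under 2.65 kb from Pol II, and 7 of 13 that lay farther from both, in the words of the distance classes of the deposited table. These counts take any of the 8 libraries. By the TP0 libraries alone, 20 of 25, 13 of 20 and 3 of 13 were above the cutoff. The median distance to the nearest transcription start site of a protein-coding gene was 75280 bases for the 11 unoccupied genes, 12456 for the 36 occupied at TP0 and 26806 for the 11 occupied only later. The median gap to the nearest Pol III locus was 4485225, 895.5 and 1802 bases. These classes and distances were not counted for the other tRNA genes. According to the paper, tRNA genes in general more often lacked an RPC4 peak at TP0 when isolated from other Pol III loci.

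The share of each anticodon in the summed occupancy of its amino acid, taken as the sum of linear ratios over its genes, can be read as a description of where Pol III sat. For threonine, AGT genes held a mean of 41.7% at TP0 and 52.3%, 51.2% and 52.4% at TP36, TP48 and TP60, while TGT genes held 39.6%, then 31.6%, 30.1% and 31.3%. For valine, TAC genes held 25.1% at TP0 and 20.3%, 19.9% and 18.5% later, while after PH AAC genes held 38.8% to 40.2% and CAC genes 39.8% to 41.3%. For isoleucine the AAT genes held 85.4%, 82.9%, 85.5% and 85.5%. These shares are means of 2 libraries, and no test was made on them.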

How the data were processed

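RPC4 ChIP-seq was analysed in 8 libraries from mouse liver, 2 for each of 4 time points. The authors mapped fragments to NCBI37, counted them in each Pol III locus with its flanks, scaled the fragment totals of the samples to their median and deposited 1 log2 ratio of ChIP to input, with a pseudocount, for each locus and replicate. The deposited percent columns give the part of each score owed to fragments that match the genome several times. Because of the pseudocount, differences at low scores are understated. Fragment numbers are not used here, so that depth is unknown and the spread between replicates is the only error. Of the value columns, 0 could not be mapped to a sample.

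Genes were chosen by the amino acid in their annotation. The members and lists were chosen with earlier results of these data known. Scores were tested with limma 3.58.1 (R 4.3.3), with 1 mean for each of 4 levels, over all 646 loci, and two-sided p-values were turned into Storey q values. A gene was called at q under 0.05 when it passed the cutoff in at least 1 library of the times compared. The fit was tested on simulated data. Sequences were read and searched with Python 3.11.15 and Biopython 1.88 in the NCBI37 genome, with A boxes found by a consensus, and protein-coding genes came from GENCODE. The sequences of some genes are not reported here.

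Named with all values were the isoleucine TAT genes, all genes of GAT, GAC and TAC, the highest and lowest occupied gene of each amino acid at TP0, the 10 called genes with the largest statistic at TP36 and the genes nearest to the threshold. Other names, such as n-Tt5, n-Tt11 and n-Tt18 and the genes whose sequences are printed, were chosen after their values were seen. Alternatives were another adjustment, a replicate block, fits of 2 time points or of tRNA genes, 2 kinds of centring, raised or no cutoffs, loci with over 50% multiple matches left out, a variance trend and each library left out.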

Additional observations from a re-analysis of the deposited data

How the results depend on the processing

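With each library centred on its median over all loci, 40 members passed the test by TP36, 30 by TP48 and 38 by TP60, and 2 (n-Tt5 and n-Tt18) between TP36 and TP48. On that scale the change by TP36 was -1.03 for n-Tv8, -0.80 for n-Ti16, -1.65 for n-Ti4, -0.40 for n-Tv3, -0.65 for n-Tt1, -1.39 for n-Tt17, -0.79 for n-Ti17, -1.13 for n-Tv21, -0.061 for n-Tv22 and -0.75 for n-Tv23. By TP48 it was -0.55 for n-Tv8, -0.54 for n-Ti16, -0.90 for n-Ti4, -0.37 for n-Tv3, -0.53 for n-Tt1, -1.20 for n-Tt17, -0.64 for n-Ti17, -0.59 for n-Tv21 and -0.51 for n-Tv23. By TP60 it was -0.65 for n-Tv8, -0.87 for n-Ti16, -1.25 for n-Ti4, -0.37 for n-Tv3, -1.34 for n-Tt17, -0.98 for n-Ti17, -0.80 for n-Tv21 and -0.76 for n-Tv23. By construction this centring takes the shift of the library median from every gene. Centring on loci below the cutoff in all libraries, chosen after seeing the data, gave 20, 37 and 40 calls.

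The Benjamini-Hochberg adjustment gave 16, 21 and 22 calls from TP0. Over all occupied loci it gave 92 of 487, 133 of 480 and 176 of 487. Leaving out each library gave 9 to 40 calls by TP36, 11 to 40 by TP48 and 18 to 45 by TP60. Between later times it gave 0 calls, except 1 (n-Tt5) for TP60 against TP36 without TP60 replicate 1. Where a time point then held 1 library, that library was assumed to vary like the others. Without TP36 replicate 1 and without TP36 replicate 2 the change by TP36 was -0.49 and 0.64 for n-Ti4, -0.12 and 2.25 for n-Tt1 and -0.14 and 0.80 for n-Tt17. The cause was not tested. With the replicate number as a block there were 20, 30 and 29 calls from TP0 and 0 later. Same-numbered libraries deviated together with correlations from -0.28 to 0.53 over the 492 occupied loci, and the numbers were not taken to pair the pools. The highest was that of TP0 with TP36 and the lowest that of TP36 with TP60. They come from sample titles that read Series 1 or Series 2 without saying what a series shares. The deposited cutoffs were 0.81 to 0.87 in replicate 1 and 1.33 to 1.55 in replicate 2. Under the block, calls outside chromosome 13 went from 14 to 8 at TP48 and from 15 to 8 at TP60. No share over all loci is given for counts under the block. Whether their fall is particular to these genes was not tested. The other settings (fits of fewer samples or loci, cutoffs, multiple matches, variance trend) kept all counts within 1.5 times those reported. Unknown depth and 2 pools for each time limit which small changes can be called.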

Other observations

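The bases behind the unoccupied genes n-Tv13 and n-Ti2 have a stretch in common, which was seen on reading them and was then counted. The run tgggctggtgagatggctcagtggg, 25 bases long, starts at base 8 after n-Tv13 on chromosome 6 and at base 12 after n-Ti2 on chromosome 4. It was taken as the longest stretch that the bases after these 2 genes share, so that finding it there was fixed in advance. Only exact matches were counted. They lay within 50 bases after 2 of the 433 tRNA genes, these same genes. They also lay in 2 of the 91 B2 SINE loci and in 0 of the 122 other loci that are no tRNA gene. The 30 bases after the unoccupied gene n-Ti12 end in gggctggtga. That is the run from its base 2 onwards, as far as those 30 bases reach, and it was not counted. B2 elements are short interspersed repeats derived from a tRNA and transcribed by Pol III.

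The share of AGT genes in the summed occupancy of threonine genes was 43.0% and 40.4% in the TP0 libraries and from 47.9% to 57.0% in the 6 later ones, without overlap. For TGT genes it was 39.9% and 39.2% at TP0 and from 27.7% to 34.9% later, and for CGT genes the later libraries, at 15.4% to 18.7%, overlapped the 17.1% and 20.4% of TP0. A shift without overlap was not limited to threonine. Valine TAC genes held 24.5% and 25.7% at TP0 and from 16.3% to 22.3% later. Isoleucine AAT genes, with 87.0% and 83.7% at TP0 and from 82.2% to 87.5% later, did overlap. A share is a ratio within a library, and only a factor common to all genes of that library would leave it unmoved. The difference between replicates was not the same at occupied and unoccupied loci. At TP36, replicate 1 stood above replicate 2 by 0.91 in the median of the 47 occupied genes. Over the 154 loci below the cutoff in all libraries it stood above by 0.16. In the 2 TP36 libraries AGT genes held 51.8% and 52.9%, and TGT genes 32.0% and 31.3%. Whether the shares depend on the difference between replicates was not tested.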
